A study of Mus musculus with 28 samples.

Results

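Microglia of germ-free (GF) 5xFAD mice were compared with microglia of 5xFAD mice kept under specific pathogen-free (SPF) housing, gene by gene over the whole transcriptome. The libraries were taken by their titles, which gave 5 GF and 3 SPF libraries, or 8 of the 28 libraries of the series. Each library holds the RNA of FACS-isolated microglia of 1 mouse at 16 weeks of age, from brain per the labels and from hippocampus per the study. The series also holds 4 GF and 5 SPF wild-type (WT) mice and 11 mice treated with antibiotics (ABX) in the drinking water for 8 weeks. It was made to ask how microglia that meet amyloid-beta depend on gut microbes, whether these are absent from birth or removed later.

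The 5xFAD mice were heterozygous males on a C57BL/6 J background, which carry human APP and PS1 transgenes with familial Alzheimer's disease mutations. The Thy-1 promoter drives both transgenes in neurons, so that microglia meet amyloid-beta that they do not make from the transgene. The GF 5xFAD mice were derived by embryo transfer and came from a clean mouse facility in Bern. The SPF mice were housed in Freiburg and were untreated. The groups thus differ in germ status, in facility and in how the mice were derived, which cannot be told apart. Cells were sorted as CD11b+CD45low after a dump gate against lymphocyte antigens, Ly6C and Ly6G.

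Microglia are the resident macrophages of the brain parenchyma. They survey the tissue through a set of homeostatic receptors, and beside amyloid plaques they take on a disease-associated state with high expression of lipid-handling, lysosomal and phagocytic genes. Microglia of mice raised without microbes are known for an immature profile, and the uptake and breakdown of amyloid-beta depend on phagosomes, acid lysosomes and the energy to run them.

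Raw counts summed to 20192168 to 26117479 reads in the GF libraries and to 18484662 to 20207938 reads in the SPF libraries, and 17381 to 18284 genes and 18547 to 19860 genes had a read. The 100 highest genes took 32.7 to 34.8% of the reads in the GF libraries and 29.96 to 32.4% in the SPF libraries. The microglia markers Cx3cr1, P2ry12, Tmem119 and Csf1r summed to 23164 to 30116 CPM (counts scaled to library size) in the GF mice and to 29077 to 29804 CPM in the SPF mice. Of these 4 genes P2ry12 was called lower in the GF mice and 0 were called higher, and none was near 0 in any library. On the first principal component of the 8 GF and SPF 5xFAD libraries alone, which took 24.2% of their variance, the SPF 5xFAD libraries lay at 45.5 to 50.8. On the same component 4 of the GF 5xFAD libraries lay at -66.2 to -15.3. FAD_GF_201 lay between them at -0.98.

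FAD_GF_201 carries conflicting labels, since its title and its genotype field call it 5xFAD and its description calls it WT. Apoe, the lipid carrier that rises in microglia at plaques, read 5321 CPM in this mouse, 9253 to 10154 CPM in the other 4 GF 5xFAD mice and 405 to 955 CPM in the GF WT mice. Cst7, a cysteine protease inhibitor of the disease-associated state, read 774 CPM in FAD_GF_201 and 5.65 to 17.0 CPM in the GF WT mice. It was grouped by its title. The style of the descriptions gives another division of the libraries. Those of the 3 SPF 5xFAD mice end in the number of the mouse, as does that of FAD_ABX_1151, and those of the GF 5xFAD mice and the other 5 ABX 5xFAD mice end in a group name. The descriptions of the SPF WT and ABX WT mice end in the number of the mouse too, and those of the GF WT mice in a group name. Description style, housing and facility cannot be told apart in the comparison of GF with SPF 5xFAD mice.

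Of 15298 genes tested, 1962 passed an adjusted p of 0.05 in edgeR's quasi-likelihood test with Benjamini-Hochberg adjustment, which is 12.8% of the genes tested. 1066 genes (6.97%) were higher in the GF mice and 896 (5.86%) were lower. The genes that rose moved by a median of 0.55 on the log2 scale and those that fell by a median of -0.73, against a median of 0.02 over all genes tested. A difference past 1 on the log2 scale was reached by 65 genes that rose and 219 that fell. For 1680 of the 1962 genes, or 85.6%, the 5 GF and the 3 SPF libraries did not overlap, and this held for 19.6% of all genes tested. The groups have 5 and 3 mice, and the p-values rest on a spread between mice that the fit estimated over all 28 libraries, WT and ABX mice included. A fit on the GF and SPF 5xFAD libraries alone called 1551 genes (776 higher and 775 lower). Since each library is a bulk sample, a lower share of a cell state and less RNA of a gene per cell cannot be told apart.

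The number of genes called rested on a pair of the SPF mice. Without FAD_SPF_1146 it fell to 680 (298 higher and 382 lower), and without FAD_SPF_1148 to 547 (240 higher and 307 lower). Leaving out any other of the 8 GF and SPF 5xFAD mice left 1541 to 2167 genes, the highest number without FAD_GF_201. FAD_SPF_1146 and FAD_SPF_1148 were also the most alike pair within a group, with a chi-square per degree of freedom of 6.92 between their counts. It was 30.9 and 27.6 for their pairs with FAD_SPF_1144 and 24.8 to 50.3 for pairs of GF mice. The part of this likeness in the number of calls was not tested. The balance of directions depended on the scaling. With library size alone as the scale, 626 genes were higher and 1295 lower, and with no filter on low counts 613 of 1539 called genes (39.8%) were higher. With offsets for gene length, 1458 were higher and 456 lower, and with offsets for GC content 1269 were higher and 385 lower. The median of all genes lay at -0.08 with library size alone, at 0.13 with length offsets and at 0.10 with GC offsets.

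**Figure D1:**
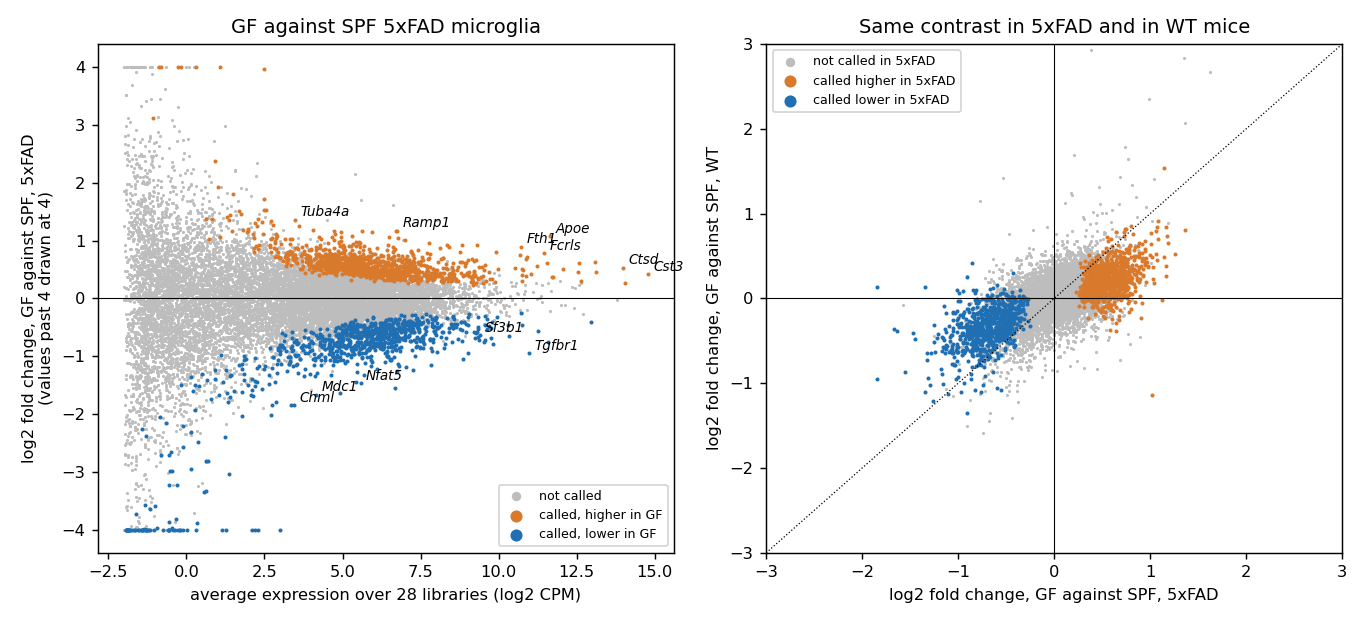
Left, the log2 fold change of each gene, GF against SPF 5xFAD, over its average expression in the 28 libraries in log2 CPM, with 1066 genes called higher in orange and 896 called lower in blue. Right, for the 9051 genes that averaged 3 log2 CPM or more, the log2 fold change in 5xFAD mice on the horizontal axis and in WT mice on the vertical axis, where most called genes lie on the same side of 0 in both genotypes but nearer to 0 in WT mice.

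The largest rises among called genes that averaged 3 log2 CPM or more and whose groups did not overlap included a neuropeptide receptor component, a protease receptor and a myeloid transcription factor. In the sentences on single genes, the 5 GF values follow the order of FAD_GF_181, FAD_GF_182, FAD_GF_184, FAD_GF_185 and FAD_GF_201 and the 3 SPF values the order of mice FAD_SPF_1144, FAD_SPF_1146 and FAD_SPF_1148, in CPM scaled by TMM. Ramp1 (chr1:91179822-91225196, GRCm38), which forms the receptor of the neuropeptide CGRP with its partner, read 260.1, 293, 289.6, 275 and 148 CPM in the GF mice and 139, 97.5 and 101 CPM in the SPF mice, a log2 difference of 1.17 ± 0.22 (SE, adjusted p = 0.00166). FAD_GF_201 lay just above the highest SPF mouse and the other 4 GF mice far above it. Plaur, the receptor of urokinase, read 154, 179, 94.6, 134 and 79.7 CPM against 73.7, 55.2 and 42.3 CPM (1.17 ± 0.24, adjusted p = 0.00325), and again FAD_GF_201 was the lowest GF mouse. Cebpb, a transcription factor of myeloid cells, read 117, 104, 139, 147 and 104 CPM against 56.4, 62.5 and 56.4 CPM (1.07 ± 0.21, adjusted p = 0.00274), with every GF mouse well above the SPF mice. Prpf31, a splicing factor of the U4/U6 particle, read 109, 107, 82.2, 73.1 and 78.1 CPM against 42.6, 42.0 and 37.3 CPM (1.14 ± 0.17, adjusted p = 0.000361), and in WT mice it had the lowest adjusted p of the same comparison, with a log2 difference of 1.53 there (adjusted p = 4.16e-07). The other genes of the 12 largest rises were the tubulin Tuba4a (1.36), the cytochrome c oxidase subunit Cox6a2 (1.26), the cilia and flagella gene Cfap43 (1.18), Fxyd5 (1.17), which regulates the sodium pump, Tmem160 (1.14), the ribosomal protein gene Rpl34 (1.12), the sulfotransferase Chst2 (1.08) and Apoe (1.08), all as log2 differences.

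The 12 largest falls were deeper than the rises. Chml, a Rab escort protein, read 2.67, 5.49, 8.05, 2.60 and 6.13 CPM against 19.8, 17.4 and 16.8 CPM (-1.85 ± 0.41, adjusted p = 0.0044), so that the highest GF mouse stayed far below the lowest SPF mouse. Mdc1, a scaffold of the DNA damage response, read 7.00, 8.71, 13.3, 6.30 and 7.16 CPM against 28.9, 27.7 and 24.6 CPM (-1.67 ± 0.24, adjusted p = 0.000354). Nfat5 (chr8:107293470-107379517), a transcription factor of the response to osmotic stress, read 27.8, 25.4, 24.9, 21.5 and 19.8 CPM against 45.3, 83.6 and 69.3 CPM (-1.47 ± 0.20, adjusted p = 0.000161). The SPF mice were spread widely there, and the GF mice stayed close to each other below them. Fam208b (chr13:3566035-3611108) read 16.5, 21.3, 20.8, 30.3 and 23.6 CPM against 62.6, 59.8 and 62.3 CPM (-1.45 ± 0.18, adjusted p = 5.93e-05), with SPF mice that hardly differed from each other. Adcy8, an adenylyl cyclase, fell by 1.84 on the log2 scale (adjusted p = 0.0109), with FAD_GF_181 nearly at 0. The remaining falls were those of the zinc finger gene Zfp654 (-1.63), the glycosyltransferase C1galt1 (-1.34), the deubiquitinase Usp9x (-1.33), the zinc finger gene Zfp619 (-1.28), neurobeachin Nbea (-1.27), the orphan receptor Gpr165 (-1.26) and Pfkfb2 (-1.25), which sets the level of a regulator of glycolysis.

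Among the called genes, the 5 with the highest expression all rose, by modest amounts. Cst3, the secreted protease inhibitor cystatin C, read 32964, 33954, 35813, 36525 and 30817 CPM against 27605, 24546 and 24399.6 CPM (0.41 ± 0.12, adjusted p = 0.0215), and the groups did not overlap. Ctsd, Ctss and C1qb, also among them, are given with their groups of genes.

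**Figure D2:**
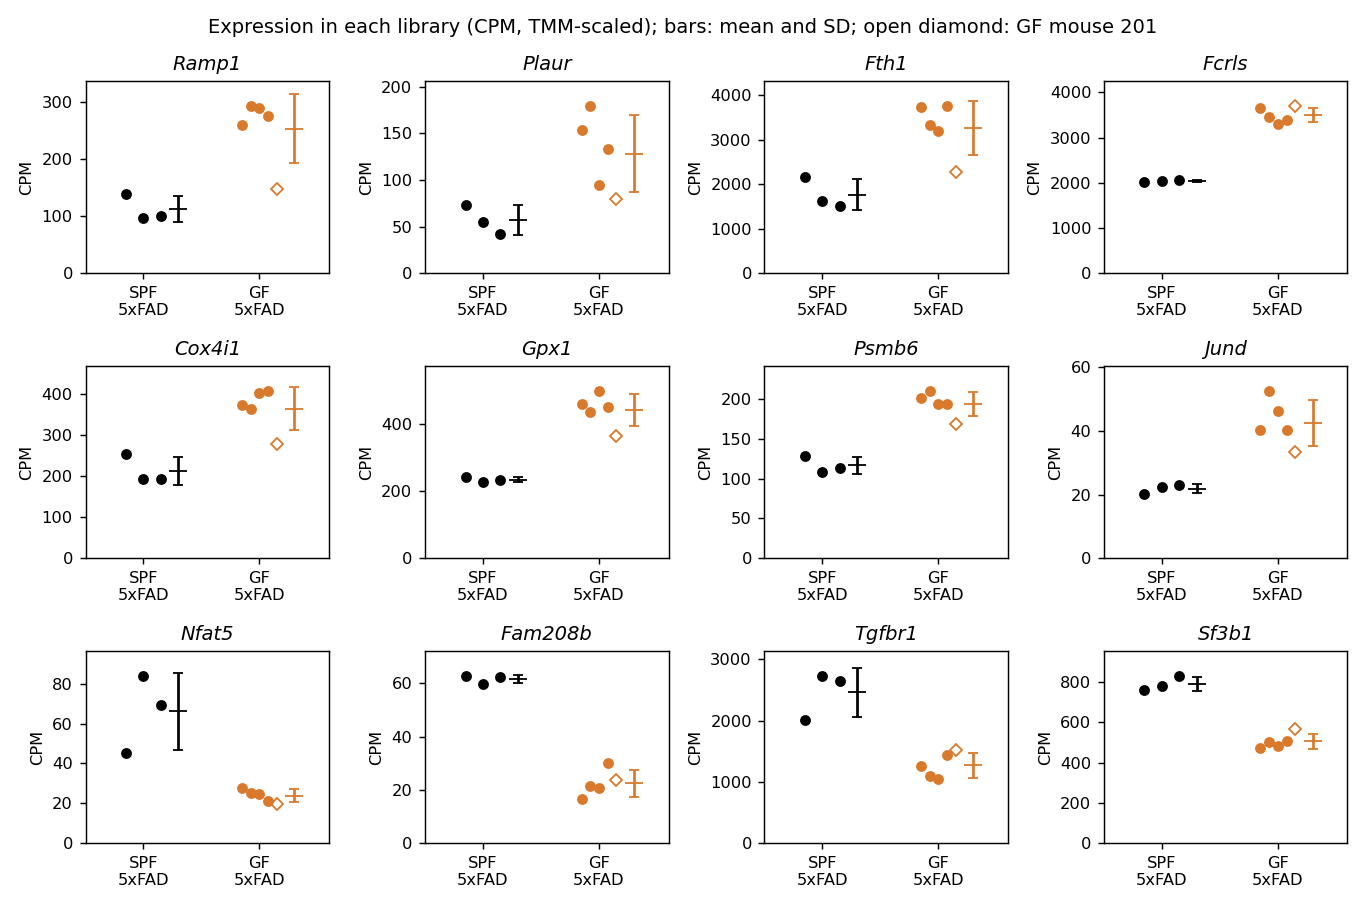
CPM of 12 genes in each library, SPF 5xFAD in black (3 mice) and GF 5xFAD in orange (5 mice, FAD_GF_201 as an open diamond), each with its mean and SD, on axes that start at 0. In each of the 12 panels the SPF and the GF mice do not overlap, and for Ramp1, Plaur, Fth1 and Cox4i1 FAD_GF_201 is the GF mouse nearest to the SPF mice.

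Disease-associated microglia genes, which rise in microglia at plaques, were more often called higher than lower. Of the 30 genes tested 17 rose in the GF mice and 0 fell, beside 6.97% of all genes called higher, and the median log2 difference was 0.57. All 30 had a positive difference, and for 10 of them the groups did not overlap, beside 19.6% of all genes. Fth1, the heavy chain of the iron store ferritin, read 3724, 3333, 3197, 3750.2 and 2271 CPM against 2158, 1613 and 1507 CPM (0.89 ± 0.16, adjusted p = 0.00166), where FAD_GF_201 stayed slightly above the highest SPF mouse. Ctsz, a lysosomal protease, read 5746, 5616, 5518, 5698 and 4107 CPM against 4019, 3273 and 3194 CPM (0.61 ± 0.11, adjusted p = 0.00166), and here too FAD_GF_201 lay next to FAD_SPF_1144. Ctsb, the highest member that was not called, differed by 0.23 ± 0.13 (adjusted p = 0.253) with overlapping groups. The mean log2 CPM of the list was 9.78 ± 0.33 (SD, n = 5) in the GF mice and 9.24 ± 0.24 (n = 3) in the SPF mice, and FAD_GF_201 lay at 9.23, within the SPF mice. The disease-associated microglia genes called higher numbered 10 without FAD_SPF_1146 and 7 without FAD_SPF_1148.

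Homeostatic microglia genes, the receptors and regulators of surveying microglia, split. 10 of the 29 genes tested fell and 4 rose, with a median of -0.22, beside 5.86% of all genes called lower and 6.97% called higher. For 15 of the 29 the groups did not overlap, beside 19.6% of all genes. Fcrls (chr3:87250758-87263738), a receptor-like gene that marks microglia, rose with the lowest adjusted p of the comparison. It read 3644, 3451, 3308, 3397 and 3696 CPM in the GF mice and 2027, 2029 and 2058 CPM in the SPF mice (0.78 ± 0.09, adjusted p = 1.02e-05), and FAD_GF_201 was as high as the other GF mice. Tgfbr1 (chr4:47353222-47414931), the signalling receptor for TGF-beta on which microglial identity depends, fell from 2008, 2723 and 2654 CPM in the SPF mice to 1258, 1095, 1053, 1435 and 1529 CPM in the GF mice (-0.95 ± 0.18, adjusted p = 0.00179). Cd33, an inhibitory sialic acid receptor, fell as well (-0.73 ± 0.12, adjusted p = 0.000823), with every GF mouse under the SPF mice. Csf1r, the receptor for the growth factors that keep microglia alive, read 12915, 13947, 13079, 13177 and 15597 CPM and 13285, 14361 and 14278 CPM, values that overlapped (-0.02 ± 0.08, adjusted p = 0.893). The count of homeostatic microglia genes that fell was 6 with length offsets, with 6 that rose, and 5 with GC offsets, with 5 that rose, and the median came nearer to 0, at -0.09 and -0.02. It was 7 without FAD_SPF_1146 (1 rose, median -0.22), 5 without FAD_SPF_1148 (1 rose, median -0.24) and 8 without FAD_SPF_1144 (2 rose, median -0.18). Without FAD_GF_201, 13 homeostatic microglia genes fell and 3 rose (median -0.23).

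The lysosome breaks down what microglia take up, and some of the genes for its proteases, its proton pump and its hydrolases rose in the GF mice. Of 12 cathepsins tested 6 rose and 0 fell, with a median of 0.50 and a positive difference in all 12, where 6.97% of all genes rose and 5.86% fell. Ctsd (chr7:142375911-142388038), the main aspartic protease of the lysosome, read 32000.4, 29788, 28648, 32466 and 22562 CPM against 22021, 18959 and 19508 CPM (0.53 ± 0.09, adjusted p = 0.00131). FAD_GF_201 lay between the SPF mice and the other GF mice. Ctsa, a carboxypeptidase that shields other lysosomal enzymes, read 3973, 3942, 3905, 3780.3 and 3129.5 CPM against 2746, 2444 and 2455 CPM (0.56 ± 0.10, adjusted p = 0.00171), and Ctss, a protease of antigen processing, 11439.8, 11866, 12905, 12522 and 10811 CPM against 9672, 8095 and 8306 CPM (0.45 ± 0.09, adjusted p = 0.0028). The count for cathepsins hardly moved with the libraries used, at 5 without FAD_SPF_1146 and 5 without FAD_SPF_1148.

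Of 20 V-ATPase subunits tested, which make up the pump that acidifies the lysosome, 10 rose and 0 fell (median 0.34), and 16 had a positive difference, against 6.97% of all genes that rose and 5.86% that fell. Atp6v1f read 154, 141, 143, 170.3 and 117 CPM in the GF mice and 88.1, 67.9 and 73.8 CPM in the SPF mice (0.92 ± 0.16, adjusted p = 0.00131). Atp6v1e1 (0.66 ± 0.12, adjusted p = 0.00166) and Atp6v1g1 (0.61 ± 0.12, adjusted p = 0.00304), like Atp6v1f subunits of the part of the pump that uses ATP, rose too. Atp6ap2, the highest member not called, read 304, 293, 297, 316 and 310.4 CPM against 353, 321 and 348 CPM (-0.17 ± 0.10, adjusted p = 0.326), lower rather than higher in the GF mice. Of 48 lysosomal hydrolases and membrane proteins 16 rose and 2 fell (median 0.19), the falls at a share near that of all genes. Gusb, the beta-glucuronidase, differed by 0.58 ± 0.11 (adjusted p = 0.00166), Fuca1, the fucosidase, by 0.69 ± 0.13 (adjusted p = 0.00166) and the tetraspanin Cd63 by 0.86 ± 0.18 (adjusted p = 0.00302), all higher in the GF mice without overlap. Psap, which yields the activators of sphingolipid breakdown, did not pass (0.22 ± 0.14, adjusted p = 0.306). The V-ATPase subunits called higher fell to 3 without FAD_SPF_1146 and to 4 without FAD_SPF_1148, and the lysosomal hydrolases and membrane proteins called higher to 8 and 5.

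Promoters of these genes were searched for the letters of a pair of known motifs, on both strands in the 250 bases before the start to show which of them carry these letters, whether or not they were called. The E-box TCACGTGA of the CLEAR type, named for coordinated lysosomal genes, stood in 0.785% of the 32851 promoters of the RefSeq table. That share is per promoter, and those that follow are per gene, where a match in any promoter of the gene counts. By gene, the E-box was found for 1.78% of the 10200 genes tested that had a promoter. It was found for 2.97% of 841 genes called higher and for 2.44% of 614 genes called lower. It stood in the promoters of 2 of 8 cathepsins, Ctsa and Ctsd, in 3 of 39 lysosomal hydrolases and membrane proteins and in 1 of 14 V-ATPase subunits, and also in 1 of 32 complex I nuclear subunits, 2 of 68 mitochondrial ribosomal proteins and 0 of 34 complex II to V nuclear subunits. Of these carriers Ndufa7 (0.56, adjusted p = 0.0223) and Mrpl2 (0.58, adjusted p = 0.0099) rose as Ctsa and Ctsd did. Mrps18c (0.39, adjusted p = 0.211) was not called, nor were Gla (0.65, adjusted p = 0.141), Cln3 (0.29, adjusted p = 0.0832), Mcoln1 (0.04, adjusted p = 0.833) and Atp6v1a (0.04, adjusted p = 0.885). This motif reads the same on both strands. The core GCATGCGC of nuclear respiratory factor 1 (NRF1), which reads GCGCATGC on the other strand, was found for 5.07% of the genes tested that had a promoter. It was found for 5.59% of those called higher and for 6.35% of those called lower. The NRF1 core stood in the promoters of 5 of 34 complex II to V nuclear subunits, 3 of 32 complex I nuclear subunits and 8 of 68 mitochondrial ribosomal proteins. It also stood in those of 2 of 14 V-ATPase subunits and 4 of 39 lysosomal hydrolases and membrane proteins. Of the last, Naglu (0.51) and Lipa (0.35) rose, Mcoln1 was not called and Tmem106b fell (-0.71, adjusted p = 0.0051). Of the carriers in the respiratory chain Sdhb, Cox6a1, Ndufa8 and Ndufa11 rose and Atp5g2, Atp5k, Atp5l and Ndufa6 were not called. Of those in mitochondrial ribosomal proteins Mrpl17 rose (0.46, adjusted p = 0.0216) and the other seven were not called. The stretches of Ctsa (chr2:164833730-164833772, plus strand), Ctsd (chr7:142387889-142387956, minus strand), Atp6v1f (chr6:29467684-29467751, plus strand) and Sdhb (chr4:140961187-140961254, plus strand) are printed, as examples taken from carriers that rose, from RefSeq (GRCm38.p6), 5′ to 3′ on the strand of the gene with the motif in capitals. A match describes the letters in this window and no binding was measured.
Ctsa: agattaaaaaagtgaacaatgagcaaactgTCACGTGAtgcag
Ctsd: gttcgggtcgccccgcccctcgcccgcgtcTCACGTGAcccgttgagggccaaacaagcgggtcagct
Atp6v1f: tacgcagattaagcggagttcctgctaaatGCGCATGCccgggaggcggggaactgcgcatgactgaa
Sdhb: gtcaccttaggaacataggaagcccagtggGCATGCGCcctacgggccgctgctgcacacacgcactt

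Many nuclear genes of the respiratory chain were higher in the GF mice, and none of the mitochondrially encoded genes tested was called. Of 36 complex I nuclear subunits, which take electrons from NADH, 22 rose and 0 fell, with a median log2 difference of 0.53, beside rises in 6.97% and falls in 5.86% of all genes. Ndufs8, a core subunit with iron-sulfur clusters, read 134, 127, 119, 115 and 104 CPM against 80.0, 72.1 and 69.3 CPM (0.70 ± 0.13, adjusted p = 0.0017), with a clear gap between the groups. Ndufb7 (0.90 ± 0.19, adjusted p = 0.00404) and Ndufa9 (0.54 ± 0.11, adjusted p = 0.0034), accessory subunits, rose as well. Ndufs1, the largest core subunit, read 84.5, 78.2, 65.8, 78.4 and 83.6 CPM and 95.6, 72.4 and 92.5 CPM, with groups that overlapped (-0.15 ± 0.12, adjusted p = 0.43). The mean log2 CPM of the complex I nuclear subunits was 6.03, 5.89, 5.93, 6.07 and 5.66 in the GF mice and 5.57, 5.33 and 5.36 in the SPF mice, so that FAD_GF_201 lay between the groups and closest to FAD_SPF_1144.

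Of 43 complex II to V nuclear subunits, 22 rose and 0 fell (median 0.47), again beside 6.97% and 5.86% of all genes. Sdhb, the iron-sulfur subunit of succinate dehydrogenase, read 195, 198.7, 188, 181.3 and 162 CPM against 125, 107 and 120.0 CPM (0.66 ± 0.11, adjusted p = 0.00106), and the groups did not overlap. Cox4i1, of cytochrome c oxidase, differed by 0.78 ± 0.16 (adjusted p = 0.00293) and Atp5b, the catalytic subunit of ATP synthase, by 0.40 ± 0.08 (adjusted p = 0.00275), both higher in the GF mice. Atp5a1, its partner in the same complex, read 474, 421, 399, 394 and 415 CPM against 391, 358 and 347 CPM, higher in each GF mouse than in each SPF mouse, but did not pass (0.20 ± 0.08, adjusted p = 0.102). These counts leaned on a pair of the SPF mice: 5 complex I nuclear subunits were called without FAD_SPF_1146 and 6 without FAD_SPF_1148, and of the complex II to V nuclear subunits 8 and 6. All of those called were higher in the GF mice, and the medians stayed between 0.43 and 0.50. Under length offsets the counts were 26 and 27 and under GC offsets 25 and 27, none of them lower.

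The share of counts on mitochondrially encoded genes was 0.198, 0.180, 0.195, 0.224 and 0.137% in the GF mice and 0.322, 0.226 and 0.237% in the SPF mice. The SPF mice were all above the GF mice, with a mean difference of -0.0748 percentage points for GF less SPF (0.261 ± 0.0523%, SD, n = 3, against 0.187 ± 0.0319%, n = 5). An exact two-sided permutation test over the 56 splits gave p = 0.0357, the smallest that 5 against 3 mice allow. Of the 13 mitochondrially encoded genes 7 passed the filter, and 0 were called (median -0.43, or -0.24 without FAD_SPF_1144 and 0.04 with GC offsets). mt-Cytb, of complex III, read 787, 686, 743, 828 and 529.7 CPM against 1057, 751 and 772 CPM (-0.27 ± 0.20, adjusted p = 0.42), and the groups overlapped.

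Many genes that make and break down proteins were higher in the GF mice too. Of 80 cytosolic ribosomal protein genes tested 19 rose and 0 fell (median 0.48), beside 6.97% of all genes that rose and 5.86% that fell, and 78 had a positive difference. Rpl6 read 24.7, 25.3, 28.6, 28.4 and 22.7 CPM against 13.7, 15.9 and 12.7 CPM (0.88 ± 0.16, adjusted p = 0.0017), with no overlap. Rplp0, of the ribosomal stalk, differed by 0.71 ± 0.16 (adjusted p = 0.00493) and Rps3, the highest member not called, by 0.44 ± 0.16 (adjusted p = 0.0643). Ribosomal protein genes have many near-identical pseudogene copies, and how reads were split between them can shift these values. Of 77 mitochondrial ribosomal proteins, which build the ribosome inside the organelle, 28 rose and 0 fell (median 0.43), beside the same shares of all genes, and for 41 the groups did not overlap, beside 19.6% of all genes. Mrpl12 read 42.7, 42.3, 41.7, 34.7 and 33.0 CPM against 18.0, 19.8 and 20.3 CPM (1.00 ± 0.18, adjusted p = 0.00155), and Mrpl28 (0.87 ± 0.18) and Mrpl34 (0.83 ± 0.18) rose with adjusted p of 0.00315 and 0.00364. Without FAD_SPF_1146 the cytosolic ribosomal proteins called numbered 2 and without FAD_SPF_1148 also 2, against 29 without FAD_GF_201 and 12 without FAD_GF_184, and the mitochondrial ribosomal proteins called numbered 5 and 5.

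Of 38 proteasome subunits tested 21 rose and 0 fell (median 0.39), where 6.97% of all genes rose and 5.86% fell. Psmb6, a catalytic subunit, read 202, 210.0, 194, 194 and 168 CPM against 129, 109 and 113 CPM (0.73 ± 0.13, adjusted p = 0.00155), and FAD_GF_201 stayed well above the SPF mice. Psmc3, an ATPase of the cap, rose by less (0.48 ± 0.10, adjusted p = 0.00283), and so did Psma7, of the outer ring (0.55 ± 0.12, adjusted p = 0.00327). Psma1 was higher in each GF mouse than in each SPF mouse, if only just, and did not pass (0.34 ± 0.12, adjusted p = 0.0571). The mean log2 CPM of the proteasome subunits was 6.55, 6.53, 6.55, 6.55 and 6.52 in the GF mice, nearly the same in each mouse, and 6.31, 6.06 and 6.09 in the SPF mice. Of the proteasome subunits 6 were called without FAD_SPF_1146 and 5 without FAD_SPF_1148. Among 12 eIF3 subunits, of the factor that starts translation, 3 rose and 1 fell, a small number to set beside these shares. Eif3g (0.55 ± 0.13, adjusted p = 0.00681) and Eif3d (0.43 ± 0.12, adjusted p = 0.0212) were among those higher and Eif3a was the one lower (-0.31 ± 0.10, adjusted p = 0.0311), while 0 to 1 eIF3 subunits were called without FAD_SPF_1146 or FAD_SPF_1148. Without FAD_GF_201 the log2 fold change of Eif3a was -0.29 and did not pass (adjusted p = 0.0528).

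Phagocytosis is driven by actin, and 20 of 45 actin and Arp2/3 complex genes rose while 0 fell (median 0.35), against 6.97% and 5.86% of all genes. Pfn1, profilin, which loads actin monomers, read 749, 728, 650.0, 644 and 544 CPM against 446, 416 and 396 CPM (0.66 ± 0.13, adjusted p = 0.00292), without overlap. Sh3bgrl3 (0.70 ± 0.14, adjusted p = 0.00305) and the myosin light chain Myl12b (0.61 ± 0.12, adjusted p = 0.00274) rose by similar amounts. Capza2, which caps filaments, did not pass (0.04 ± 0.09, adjusted p = 0.853), with groups that overlapped. Of the actin and Arp2/3 complex genes 9 were called without FAD_SPF_1146 and 9 without FAD_SPF_1148.

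Of 29 antioxidant enzymes 11 rose and 0 fell (median 0.39), where rises took 6.97% and falls 5.86% of all genes. Gpx1, a glutathione peroxidase, read 461, 436, 499, 453 and 366 CPM in the GF mice and 243, 227 and 234 CPM in the SPF mice (0.92 ± 0.17, adjusted p = 0.00166). Gsto1, a glutathione transferase, differed by 0.90 ± 0.16 (adjusted p = 0.00166) and Prdx2, a peroxiredoxin, by 0.55 ± 0.13 (adjusted p = 0.00559), both higher in the GF mice. Gclc, which makes the first step of glutathione synthesis, read 92.4, 109, 94.0, 111 and 99.3 CPM and 106, 114 and 103 CPM, with no sign of a gap (-0.09 ± 0.14, adjusted p = 0.742). The antioxidant enzymes called numbered 3 without FAD_SPF_1146 and 2 without FAD_SPF_1148. Among 18 glycolytic enzymes 6 rose and 1 fell (median 0.39), the fall at about the share of all genes. Eno1, enolase, read 216, 189, 208, 199.5 and 164 CPM against 132, 120.1 and 113 CPM (0.68 ± 0.13, adjusted p = 0.00194), and Aldoa, an aldolase, rose by 0.52 ± 0.13 (adjusted p = 0.00766). Hk2, the hexokinase at the entry of the pathway, was the member that fell. It read 99.8, 96.7, 95.4, 120.3 and 99.2 CPM against 129, 183.8 and 196 CPM (-0.73 ± 0.15, adjusted p = 0.00299), and it was lower in GF mice of the WT genotype as well (-0.62, adjusted p = 0.0198). For glycolytic enzymes the count was 1 higher and 1 lower without FAD_SPF_1146 and without FAD_SPF_1148.

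**Figure D3:**
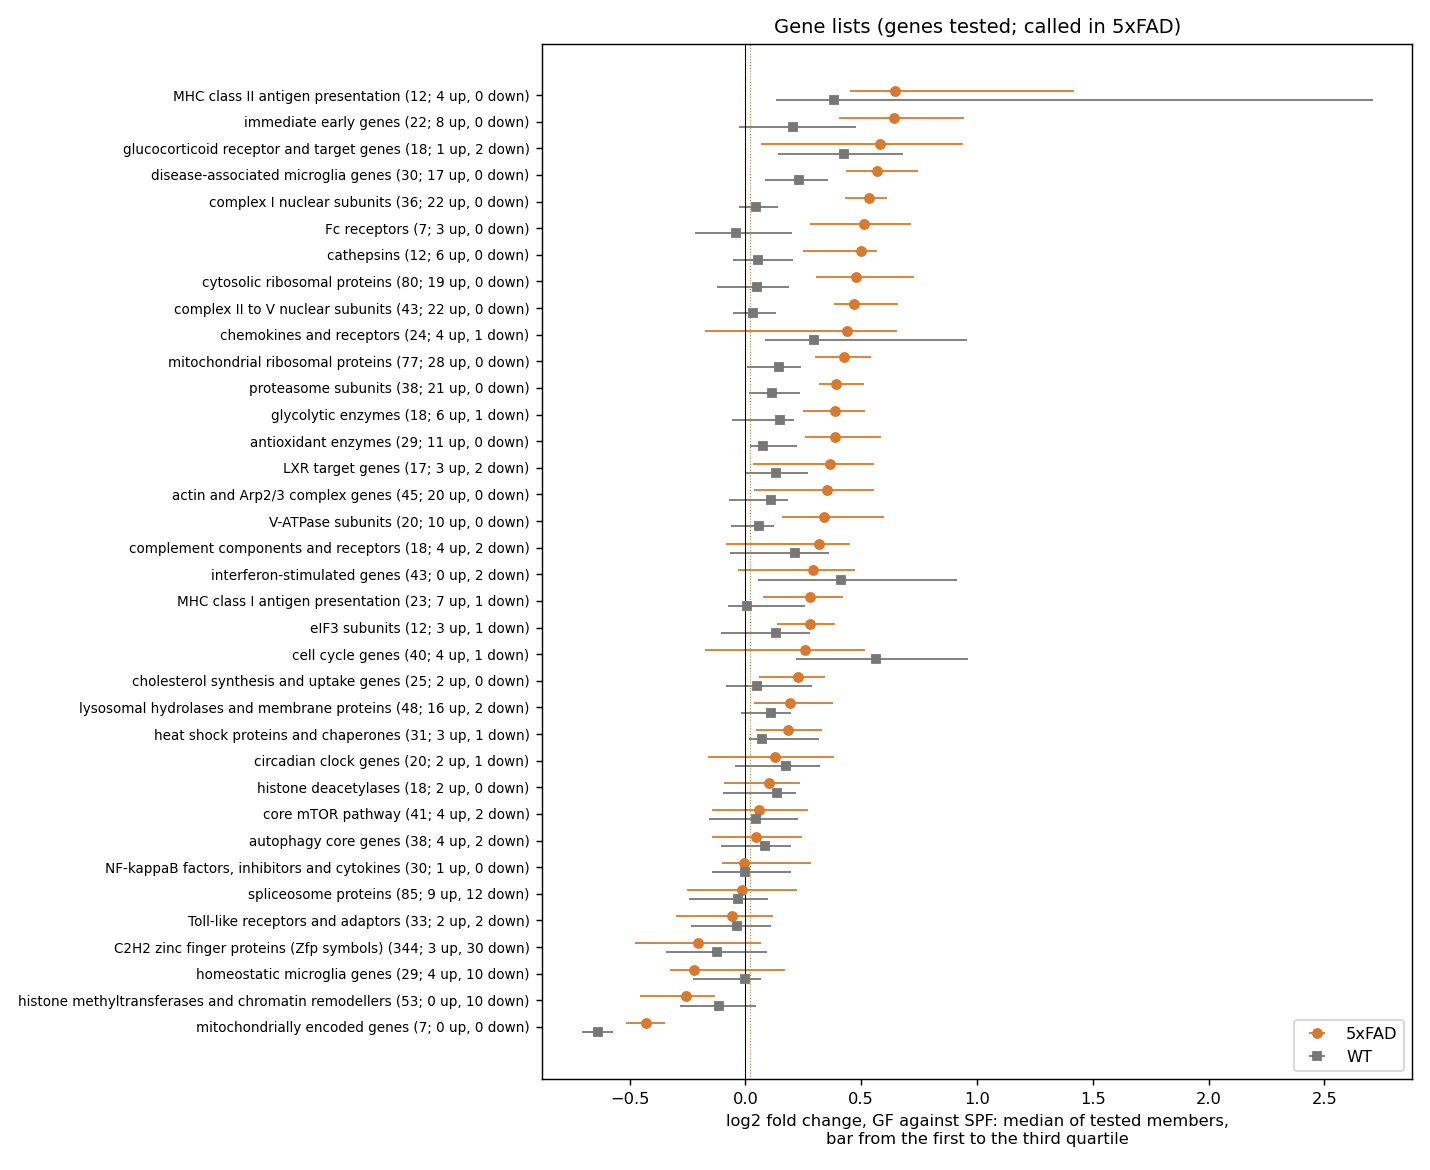
Median log2 fold change, GF against SPF, of the tested members of each gene list, with a bar from the first to the third quartile, in 5xFAD mice (orange circles) and WT mice (grey squares), beside the number of genes tested and called higher (up) and lower (down) in 5xFAD mice. The dotted line is the median of all genes in 5xFAD mice. Complex I nuclear subunits lie at 0.53 in 5xFAD and at 0.05 in WT mice, and the chromatin genes at -0.25 and -0.11.

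Receptors for antibodies and components of complement, which mark targets for uptake, changed in part. Of 7 Fc receptors, which bind antibodies, 3 rose and 0 fell (median 0.51), where 6.97% of all genes rose and 5.86% fell. Fcgr3, a low-affinity antibody receptor, read 2361, 2095, 2206, 2336 and 2099 CPM against 1647, 1483 and 1536 CPM (0.51 ± 0.09, adjusted p = 0.00117), and Fcgrt, which recycles antibodies, differed by 0.83 ± 0.18 (adjusted p = 0.00346). Fcer1g, a signalling chain of some Fc receptors, stayed just short of the threshold (0.40 ± 0.14, adjusted p = 0.0502). Without FAD_GF_201, 5 Fc receptors were called. Of 18 complement components and receptors 4 rose and 2 fell (median 0.32, or 0.19 without FAD_GF_185), beside 6.97% of all genes called higher and 5.86% called lower. C1qb, of the C1q complex that tags synapses and debris, read 12249, 12437, 14016, 12751 and 11725 CPM against 9099, 7760.1 and 7733 CPM (0.62 ± 0.12, adjusted p = 0.00178), and C1qc rose too (0.46 ± 0.10, adjusted p = 0.00344), while C1qa had a difference of 0.30 ± 0.10 with adjusted p = 0.0533. Itgam, the CD11b chain of complement receptor 3 and an antigen of the sort, fell from 1746, 1878 and 1924 CPM in the SPF mice to 1344, 1401, 1243, 1218 and 1519.8 CPM in the GF mice (-0.46 ± 0.11, adjusted p = 0.00542). The complement components and receptors called higher numbered 2 without FAD_SPF_1146 and 2 without FAD_SPF_1148, with 1 lower in each.

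Antigen presentation moved unevenly. Of 23 MHC class I antigen presentation genes 7 rose and 1 fell (median 0.28), beside 6.97% of all genes that rose and 5.86% that fell. Psme1, an activator of the proteasome, read 219.9, 202, 229.6, 202 and 173 CPM against 143, 129 and 133 CPM (0.60 ± 0.11, adjusted p = 0.00149), and the immunoproteasome subunit Psmb8 rose by a similar amount (0.62 ± 0.14, adjusted p = 0.00477). The chaperone Calr rose by 0.28 ± 0.06 (adjusted p = 0.00448), a small difference over mice that hardly varied. B2m, the invariant chain of class I molecules, overlapped between the groups (0.26 ± 0.16, adjusted p = 0.328). Of 12 MHC class II antigen presentation genes 4 rose and 0 fell (median 0.65), to be read beside the same shares, among them H2-DMa (0.64 ± 0.14, adjusted p = 0.00422) and H2-DMb1 (0.49 ± 0.13, adjusted p = 0.0117), which load peptides. Cd74, the invariant chain, read 623, 627, 414, 341 and 181.9 CPM and 155, 148 and 210.0 CPM, with a wide spread among the GF mice, and did not pass (1.35 ± 0.57, adjusted p = 0.12). Without FAD_SPF_1146 and without FAD_SPF_1148, 3 MHC class I antigen presentation genes and 2 MHC class II antigen presentation genes were called higher, against 10 and 6 without FAD_GF_201.

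Among sensing and signalling genes, 33 Toll-like receptors and adaptors held 2 that rose and 2 that fell (median -0.06), a share near the 12.8% of all genes called. Cd14, the co-receptor for bacterial lipopolysaccharide, read 747, 783, 913, 803 and 751 CPM against 551, 505 and 473 CPM (0.65 ± 0.12, adjusted p = 0.00166), higher in each GF mouse. Tlr4, the receptor it serves, moved the other way, at 95.9, 113, 101, 131 and 167 CPM against 173, 181.1 and 194 CPM (-0.59 ± 0.16, adjusted p = 0.0163). Of 30 NF-kappaB factors, inhibitors and cytokines 1 rose, the inhibitor Nfkbid (0.66 ± 0.22, adjusted p = 0.0483), and 0 fell, a share below the 12.8% over all genes. Of 43 interferon-stimulated genes 0 rose and 2 fell, although the median was 0.29 (0.08 without FAD_GF_184). The genes that fell were Parp14 (-0.95 ± 0.25, adjusted p = 0.0145) and Slfn8 (-0.67 ± 0.18, adjusted p = 0.0166). These small counts also moved with single mice. Without FAD_SPF_1146 the Toll-like receptors and adaptors had 1 rise and 0 falls, the NF-kappaB factors, inhibitors and cytokines had 0 calls and the interferon-stimulated genes 1 fall, and without FAD_SPF_1148 the interferon-stimulated genes had 0. Without FAD_GF_201 the NF-kappaB factors, inhibitors and cytokines had 2 rises and 1 fall, where the log2 fold change of Nfkbid was 0.68 and no longer passed (adjusted p = 0.0502), and the interferon-stimulated genes had 1 rise and 2 falls. Leaving out any other GF mouse or FAD_SPF_1144 left the NF-kappaB factors, inhibitors and cytokines with 0 calls.

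Of 24 chemokines and receptors 4 rose and 1 fell (median 0.44), beside 6.97% of all genes called higher and 5.86% called lower. Ccl3, a chemokine of activated macrophages, rose, with overlapping groups (1.04 ± 0.31, adjusted p = 0.0265), and so did Ccl6 (0.66 ± 0.19, adjusted p = 0.0208). The 4 rises among chemokines and receptors were lost without FAD_GF_181, FAD_GF_182, FAD_SPF_1146 or FAD_SPF_1148, where 1 gene was called lower in each. Of 22 immediate early genes, which answer fast to stimuli and to cell handling, 8 rose and 0 fell (median 0.64), read beside the same shares. Jund read 40.4, 52.4, 46.3, 40.2 and 33.3 CPM against 20.2, 22.4 and 23.1 CPM (0.96 ± 0.20, adjusted p = 0.00344) and Junb 166, 208, 200.97, 149 and 173 CPM against 104, 104 and 101 CPM (0.80 ± 0.18, adjusted p = 0.00558), both without overlap. Klf6 rose by 0.40 ± 0.09 (adjusted p = 0.00676), and Btg2 did not pass (0.14 ± 0.12, adjusted p = 0.509). Of the immediate early genes 2 were called without FAD_SPF_1146 and 2 without FAD_SPF_1148.

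Lists of the mTOR pathway, autophagy and sterol handling had calls in both directions, apart from cholesterol synthesis. Of 41 genes of the core mTOR pathway, which couples nutrients to growth, 4 rose and 2 fell (median 0.06), beside 6.97% of all genes called higher and 5.86% called lower. Eif4ebp1, the brake on translation that mTOR releases, rose from 29.1, 18.9 and 20.4 CPM to 41.8, 41.5, 46.3, 54.0 and 40.7 CPM (0.98 ± 0.19, adjusted p = 0.00272). Of 38 autophagy core genes 4 rose and 2 fell (median 0.05). Map1lc3b, a marker of autophagosomes, rose (0.45 ± 0.10, adjusted p = 0.00507) and the starting kinase Ulk2 fell from 291, 300.2 and 330.4 CPM to 180.0, 169.5, 189, 168 and 199.1 CPM (-0.76 ± 0.15, adjusted p = 0.00276). Of 17 LXR target genes, which export cholesterol, 3 rose and 2 fell (median 0.37). This median was 0.08 without FAD_SPF_1148, 0.18 without FAD_GF_184 and 0.12 over the LXR target genes with at least 10 counts in every library. The LXR target genes called included Srebf1, which drives fatty acid synthesis (0.73 ± 0.18, adjusted p = 0.00739), and Mylip, which degrades the LDL receptor and fell (-0.59 ± 0.12, adjusted p = 0.00276). Of 25 cholesterol synthesis and uptake genes 2 rose, Mvd (0.74 ± 0.24) and Pmvk (0.74 ± 0.25), with adjusted p of 0.0392 and 0.048, and 0 fell. None of the cholesterol synthesis and uptake genes was called without FAD_GF_181, FAD_GF_184, FAD_GF_185 or any 1 of the SPF mice, and the LXR target genes had 0 rises and 1 fall without FAD_SPF_1148. The autophagy core genes had 1 rise and 2 falls without FAD_SPF_1146 and 1 of each without FAD_SPF_1148. With library size alone the medians of the core mTOR pathway and the autophagy core genes were -0.04 and -0.05.

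Of 40 cell cycle genes 4 rose, among them the kinase Cdk4 (0.51 ± 0.11, adjusted p = 0.00366), and 1 fell, beside 6.97% of all genes called higher and 5.86% called lower, which is also the scale for the other small lists here. Of 31 heat shock proteins and chaperones 3 rose and 1 fell, the cochaperone Dnajc3 (-0.41 ± 0.10, adjusted p = 0.00609). Of 20 circadian clock genes 2 rose and 1 fell. Clock itself fell (-0.83 ± 0.19, adjusted p = 0.00572) and its output gene Dbp rose from 3.75, 4.43 and 4.79 CPM to 9.62, 8.71, 7.03, 8.19 and 13.2 CPM (1.11 ± 0.31, adjusted p = 0.0194). Of 18 glucocorticoid receptor and target genes 1 rose, the metallothionein Mt1 (0.84 ± 0.25, adjusted p = 0.0243), and 2 fell, the receptor Nr3c1 (-0.47 ± 0.15, adjusted p = 0.0366) and the transglutaminase Tgm2 (-0.70 ± 0.18, adjusted p = 0.00992). Of 18 histone deacetylases 2 rose, Sirt2 (0.65 ± 0.12, adjusted p = 0.00166) and Sirt5 (1.04 ± 0.30, adjusted p = 0.0227), and 0 fell. In these small lists the calls moved with single mice: without FAD_SPF_1146 the core mTOR pathway had 1 call, the glucocorticoid receptor and target genes 0, the cell cycle genes 2, the histone deacetylases 1 and the heat shock proteins and chaperones 1. The core mTOR pathway had 1 rise and 1 fall without FAD_SPF_1148, 2 of each without FAD_GF_181 or FAD_GF_184, and 4 rises and 0 falls without FAD_GF_182. Its median was 0.0045 without FAD_GF_181 and 0.0067 without FAD_SPF_1144. The heat shock proteins and chaperones had 1 rise and 1 fall without FAD_GF_201, where the log2 fold change of Cct5, a chaperonin subunit, was 0.34 and no longer passed (adjusted p = 0.066).

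Of 53 histone methyltransferases and chromatin remodellers, which act on chromatin in the nucleus, 10 fell and 0 rose (median -0.25), beside 5.86% of all genes called lower and 6.97% called higher. Kmt2c, a histone H3 methyltransferase, read 82.3, 87.4, 75.6, 77.9 and 71.1 CPM against 133, 134 and 127 CPM (-0.73 ± 0.14, adjusted p = 0.00256), with both groups tight and apart. Tet2, which oxidises methylated DNA, fell by 0.81 (adjusted p = 0.00316) and the remodelling ATPase Smarca5 by 0.69 (adjusted p = 0.00789) on the log2 scale. Of 344 C2H2 zinc finger genes with a Zfp symbol 30 fell and 3 rose (median -0.20), so that the share that fell was above the share of all genes called lower and the share that rose below that called higher. Among the falls were Zfp397 (-0.80 ± 0.14, adjusted p = 0.00131) and Zfp329 (-0.95 ± 0.19, adjusted p = 0.00274). The 85 spliceosome proteins split into 9 that rose and 12 that fell (median -0.01). Sf3b1, of the particle that binds the branch point, fell from 759.9, 780.4 and 828 CPM to 471, 504, 484, 507 and 567 CPM (-0.64 ± 0.11, adjusted p = 0.00132), and Snrpb, of the core ring, rose from 145, 131 and 139 CPM to 210.3, 207, 225, 206 and 191 CPM (0.59 ± 0.10, adjusted p = 0.00132). Of 5 nuclear-retained long RNAs tested 1 fell, Neat1 (-0.51 ± 0.15, adjusted p = 0.0212), and Malat1 overlapped between the groups (-0.28 ± 0.23, adjusted p = 0.465).

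The calls moved with the length and the GC content of the genes. The genes that fell had a median summed exon length of 6507 bases and a median GC content of 43.8%, those that rose 2317 bases and 53.1%, and all genes tested 3516 bases and 49.0%. Over quintiles of the genes tested by length, from the shortest to the longest, the median log2 difference went from 0.18, 0.18, 0.04 and -0.03 to -0.22, and the numbers that rose and fell from 341 and 53 in the shortest quintile to 65 and 454 in the longest. Over quintiles by GC content it went from -0.23 in the lowest through -0.09, 0.01 and 0.12 to 0.22 in the highest, with 40 rises and 396 falls in the lowest quintile and 390 and 25 in the highest. The single libraries showed the same: the longest quintile less the shortest was -0.37 to -0.10 on the log2 scale in the 5 GF mice and -0.03, 0.22 and 0.20 in the SPF mice. FAD_ABX_1151 lay at 0.32 and the other 5 ABX 5xFAD mice at -0.35 to 0.29. For GC content, the highest quintile less the lowest was 0.21 to 0.44 in the GF mice, -0.26 to -0.06 in the SPF mice, -0.28 in FAD_ABX_1151 and -0.09 to 0.45 in the other 5 ABX 5xFAD mice.

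Offsets that take out the length of the genes left 3 of the histone methyltransferases and chromatin remodellers lower and 1 higher (median 0.04), and offsets for GC content left 3 lower and 0 higher (median -0.23). Of the C2H2 zinc finger proteins (Zfp symbols) 15 were lower and 6 higher with length offsets and 8 lower and 6 higher with GC offsets, and of the spliceosome proteins 5 were lower and 10 higher, and 3 lower and 12 higher. Falls among the histone methyltransferases and chromatin remodellers, the C2H2 zinc finger proteins (Zfp symbols) and the spliceosome proteins numbered 5, 13 and 7 without FAD_SPF_1146 and 4, 10 and 5 without FAD_SPF_1148. Offsets for length and for GC content also moved the median of all genes to 0.13 and 0.10, so counts of rises under them are read against that shift. Disease-associated microglia genes had 19 rises with each offset, complex I nuclear subunits 26 and 25, and cathepsins 6 and 8. With library size alone and with no filter on low counts, the rises numbered 15 and 16 for complex I nuclear subunits, 18 and 17 for complex II to V nuclear subunits, 11 and 13 for cytosolic ribosomal proteins, 15 and 14 for mitochondrial ribosomal proteins, 11 and 11 for proteasome subunits and 7 and 6 for V-ATPase subunits. They were 12 and 12 for lysosomal hydrolases and membrane proteins, 4 and 4 for MHC class I antigen presentation genes and 17 and 17 for disease-associated microglia genes, and 0 and 0 for heat shock proteins and chaperones and for cholesterol synthesis and uptake genes. With GC offsets the rises were fewer than without them for glycolytic enzymes (3, from 6), cytosolic ribosomal proteins (17, from 19), LXR target genes (2, from 3) and cholesterol synthesis and uptake genes (1, from 2).

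**Figure D4:**
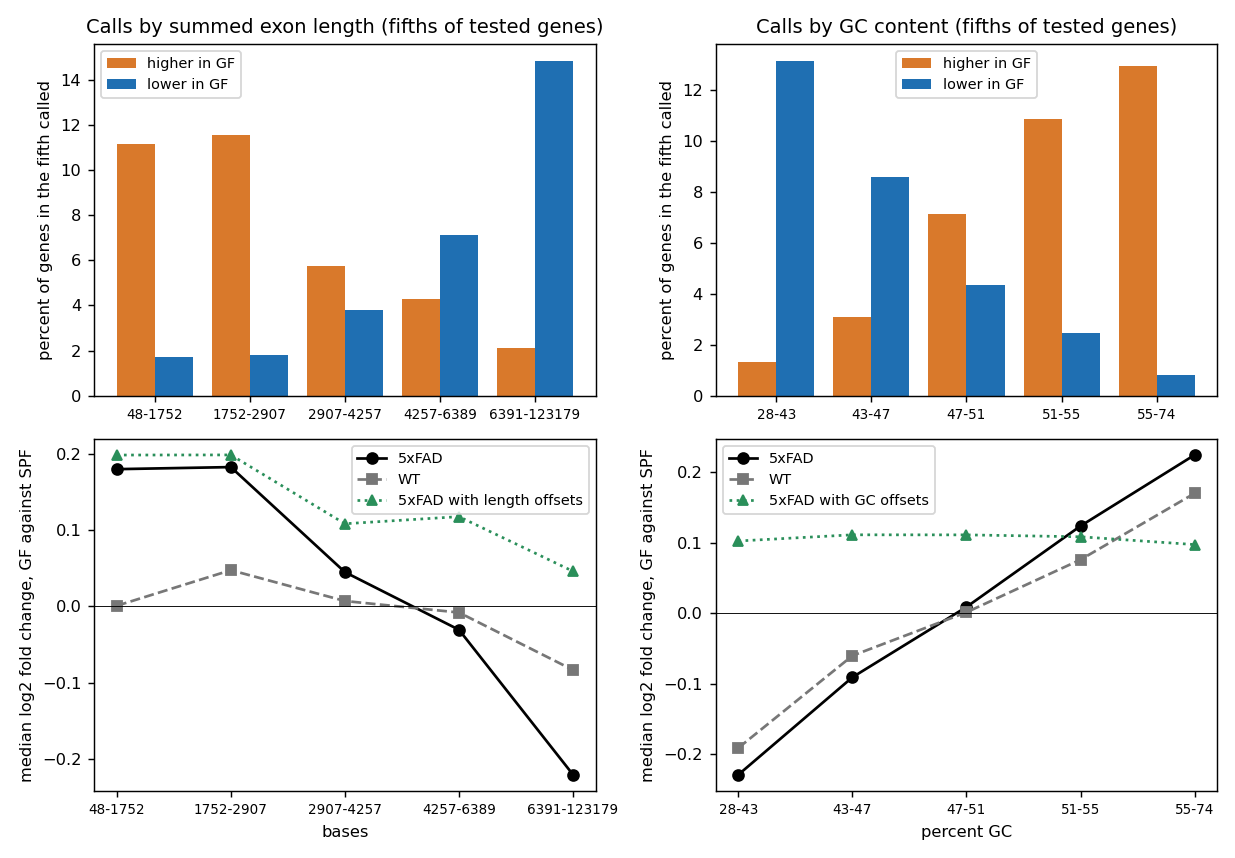
Top, the percent of genes called higher (orange) and lower (blue) in GF 5xFAD mice in quintiles of the genes tested, by summed exon length in bases (left) and by GC content in percent (right). Bottom, the median log2 fold change of each quintile in 5xFAD mice (black), in WT mice (grey) and in 5xFAD mice with offsets for the property (green). Over length the median goes from 0.18 to -0.22 in 5xFAD mice and from 0.00 to -0.08 in WT mice, and over GC content from -0.23 to 0.22 and from -0.19 to 0.17.

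Of 16 neutrophil markers, 12 had counts in the SPF 5xFAD mice and 0 or 1 count over the GF 5xFAD mice, some of them with 10 counts or fewer over the SPF mice. 11 of the 16 markers passed the filter and 11 of the 16 had 0 counts in all 5 GF mice. Those at 0 or 1 count that passed did so through the libraries where they are high, so a call could only be lower, and their values are given as a description. S100a8, a chain of the calprotectin of neutrophils, had 0 counts in each GF mouse and 50.9, 34.5 and 17.3 CPM of the library total in the SPF mice. It was at least 1317-fold lower in the GF mice, taking as the floor 3 counts over the 5 GF libraries. S100a9, its partner, was at least 1278-fold lower, the iron-binding granule proteins Ltf and Lcn2 at least 1164-fold and 321-fold, the surface antigen Cd177 at least 183-fold and the ficolin Fcnb at least 49.4-fold, all with 0 counts in the GF mice. The granule proteins Ngp and Camp had 1 count each over the GF mice. Ngp read 92.8, 59.8 and 16.7 CPM in the SPF mice, a ratio of 6529 with a 95% counting interval of 1171 to 257948, and for Camp the ratio was 2011 (360.1 to 79502). These intervals and floors cover counting error only.

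The levels of the neutrophil genes differed among the SPF mice, with FAD_SPF_1144 the highest and FAD_SPF_1148 the lowest for most of them. The 16 markers summed to 286, 210 and 70.9 CPM in FAD_SPF_1144, FAD_SPF_1146 and FAD_SPF_1148, to 0 to 2.58 CPM in the GF mice and to 158 CPM in FAD_ABX_1151. The SPF 5xFAD mice and FAD_ABX_1151 share their label style with the SPF WT mice, whose sum was 0 to 0.336 CPM. In the other 5 ABX 5xFAD mice the sum was 0.0570 to 5.47 CPM, and in the 9 SPF and GF WT mice it was at most 1.01 CPM. Ly6g, the antigen of the dump gate, had 10 counts over the 3 SPF mice and 0 in the GF mice, and Mpo and Elane, of young neutrophils, had 4 and 2 counts in the SPF mice. Chil3 and Hp, listed with the monocyte markers, had the same pattern, with 0 counts in the GF mice (30.3, 15.1 and 6.18 CPM for Chil3 in the SPF mice). The other listed neutrophil markers did not have this pattern. Cxcr2 had 55 counts over the GF mice and 5 over the SPF mice, Mmp9 had 53 and 117 and Wfdc21 had 5 and 59. None of these was called (edgeR adjusted p = 0.392, 0.419 and 0.0729). Mmp8 had 0 counts in both groups. The part of neutrophil RNA in the other differences was not tested.

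**Figure D5:**
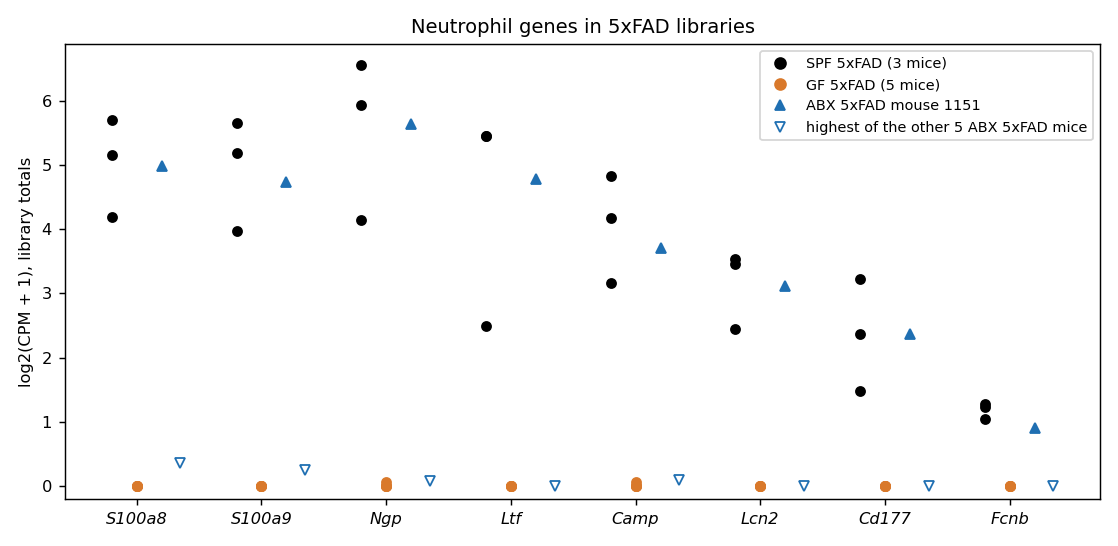
log2(CPM + 1) of 8 neutrophil genes, with CPM of the library total, in each SPF 5xFAD mouse (black), each GF 5xFAD mouse (orange), FAD_ABX_1151 (filled triangle) and the highest of the other 5 ABX 5xFAD mice (open triangle). The GF mice lie at or next to 0 for all 8 genes, and the SPF mice and FAD_ABX_1151 lie above them, with S100a8 at 50.9, 34.5 and 17.3 CPM in the SPF mice and 30.5 CPM in FAD_ABX_1151.

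Markers of other cells gave few calls. Of 14 border-associated macrophage markers tested 0 were called in 5xFAD mice, and their sum was 32.4 to 103 CPM in the GF mice and 31.2 to 48.2 CPM in the SPF mice. In the WT comparison 8 were called higher in the GF mice, beside 0.869% of all genes called higher there. Mrc1 and Cd163, their defining receptors, read 16.1, 5.04, 2.86, 6.43 and 26.4 CPM and 6.89, 2.00, 2.74, 0.176 and 10.1 CPM in the GF mice. Of 8 B cell markers 1 of 3 tested was called, Ighm, which read 835, 816, 738, 696 and 725 CPM against 642, 585 and 568 CPM (0.35 ± 0.11, adjusted p = 0.0389). Its level is far above that of Cd79b (36.4, 40.9, 45.1, 24.6 and 43.8 CPM in the GF mice), which did not pass. Markers of neurons, astrocytes, oligodendrocytes, endothelial and mural cells, T and NK cells and the choroid plexus had 0 calls among 34 genes tested, and none of 7 erythrocyte markers passed the filter. The oligodendrocyte markers summed to 170.1 to 223 CPM in the GF mice and to 180.6 to 190.1 CPM in the SPF mice, the astrocyte markers to 155 to 189 CPM and to 225 to 240.1 CPM, which is mostly Slc1a3 (-0.32 ± 0.13, adjusted p = 0.107), and the endothelial and mural cell markers to 10.3 to 29.3 CPM and to 29.1 to 41.5 CPM. The part of these cells in the other results was not tested.

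The same comparison in WT mice uses 4 GF and 5 SPF libraries that are none of the 8 above. It called 248 genes, 1.62% of those tested, of which 133 (0.869%) were higher in the GF mice and 115 (0.752%) lower. The count rested on single mice, at 54 genes without WT_GF_229, 65 without WT_GF_231, 91 without WT_GF_230, and 92, 113, 106 and 159 without WT_SPF_912, WT_SPF_926, WT_SPF_936 and WT_SPF_928. It was 1286 genes with a fit on the WT GF and WT SPF libraries alone and 795 without the ABX libraries. Of the 1066 genes that rose in 5xFAD mice, 978 (91.7%) had a positive difference in WT mice, and of the 896 that fell, 821 (91.6%) had a negative difference. The share with the same sign was 67.7% over all genes tested and 64.2% over those not called. The median WT difference was 0.22 for the genes that rose in 5xFAD mice and -0.34 for those that fell, which were chosen by their 5xFAD difference. 113 genes were called in both genotypes in the same direction, which is 5.76% of the 5xFAD calls and 45.6% of the WT calls. Over the 9051 genes that averaged 3 log2 CPM or more the differences in the 2 genotypes had a Pearson r of 0.61, and over all genes tested it was 0.23. Both are descriptions across genes, which are not independent and share trends over length and GC content.

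The lists that changed in 5xFAD mice had the following values in WT mice. Of the 12 MHC class II antigen presentation genes 4 were called higher in each genotype, with medians of 0.65 and 0.38, and Cd74 passed in WT mice (2.84, adjusted p = 0.00713). The WT comparison also had 8 of 14 border-associated macrophage markers called higher, beside 0.869% of all genes, and the part of such cells was not tested. Cd33 (-0.60, adjusted p = 0.00704), Nbea (-1.21, adjusted p = 0.0105), Mylip (-0.48, adjusted p = 0.0218) and C1galt1 (-1.10, adjusted p = 0.0421) fell in WT mice as in 5xFAD mice. Apoe (0.91, adjusted p = 0.0362), Ramp1 (0.74, adjusted p = 0.0434), Mrpl12 (0.64, adjusted p = 0.0358), Mrpl28 (0.62, adjusted p = 0.0434) and Psmc3 (0.33, adjusted p = 0.0446) rose in both. Complex I nuclear subunits had a median of 0.05 in WT mice with 0 calls, complex II to V nuclear subunits 0.03 with 0 calls, cytosolic ribosomal proteins 0.05 with 1 call, cathepsins 0.06 with 0 and V-ATPase subunits 0.06 with 0. The WT medians lay further from 0 for disease-associated microglia genes (0.23, 1 call), complement components and receptors (0.22, 0 calls), immediate early genes (0.20, 0 calls), glycolytic enzymes (0.15, 2 calls, both lower), mitochondrial ribosomal proteins (0.15, 4 calls), proteasome subunits (0.11, 2 calls), lysosomal hydrolases and membrane proteins (0.11, 1 call) and actin and Arp2/3 complex genes (0.11, 1 higher and 2 lower). They were also further from 0 for histone methyltransferases and chromatin remodellers (-0.11, 0 calls) and C2H2 zinc finger proteins (Zfp symbols) (-0.12, 2 calls, both lower). Antioxidant enzymes had a WT median of 0.07 with 0 calls, Fc receptors -0.04 with 0, MHC class I antigen presentation genes 0.01 with 1, and homeostatic microglia genes -0.0036 with 1 higher and 3 lower.

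Whether the difference between GF and SPF mice itself differed with the genotype was tested as an interaction. In edgeR's quasi-likelihood test 0 of 15298 genes passed an adjusted p of 0.05 (0%), with a lowest adjusted p of 0.0724, and 1304 genes (8.52%) had an unadjusted p under 0.05. DESeq2 called 25 genes (9 with a higher difference in 5xFAD mice and 16 with a lower) and limma's voomWithQualityWeights 116 (70 and 46). Without FAD_GF_201 edgeR called 8 genes. No gene list held a gene called in the interaction. At an unadjusted p under 0.05 there were 20 of 36 complex I nuclear subunits, 22 of 43 complex II to V nuclear subunits, 15 of 80 cytosolic ribosomal proteins, 15 of 45 actin and Arp2/3 complex genes and 10 of 30 disease-associated microglia genes, beside the 8.52% over all genes. Other lists lay at both ends, with 5 of 7 Fc receptors, 9 of 14 border-associated macrophage markers (with a lower difference in 5xFAD mice, median -3.64), 1 of 43 interferon-stimulated genes, and 0 of 18 complement components and receptors, 0 of 31 heat shock proteins and chaperones and 0 of 12 eIF3 subunits. Fth1, for example, had an interaction of 0.68 (adjusted p = 0.434) and Jund of 0.77 (adjusted p = 0.449).

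The ABX 5xFAD mice are compared with the same 3 SPF mice, so only their values are set beside the others. The mean log2 CPM of the complex I nuclear subunits was 5.15 in FAD_ABX_1151 and 5.22 to 5.75 in the other 5 ABX mice, where the GF mice were at 5.66 to 6.07 and the SPF mice at 5.33 to 5.57. Fcrls read 1846 to 2496 CPM in the other 5 ABX mice and 2015 CPM in FAD_ABX_1151, against 2027 to 2058 CPM in the SPF mice. Tgfbr1 read 1061 to 2211 CPM in the other 5 ABX mice and 2764 CPM in FAD_ABX_1151. Gpx1 read 313 to 490.1 CPM and 205 CPM. For Fth1 the values were 1609 to 2341 CPM and 1371 CPM. No ABX 5xFAD mouse reached the lowest GF mouse for Fcrls, while for Gpx1 and Fth1 the ranges of the other 5 ABX mice and the GF mice overlapped.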

How the data were processed

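RNA was sequenced from microglia of 28 mice, 8 of them GF or SPF 5xFAD mice and 1 library each. The authors made cDNA with the SMARTer v4 kit, which does not mark strand, aligned reads with STAR 2.7.2 and assigned them to genes with featureCounts 1.6.2, per the labels, and deposited raw read counts per gene with a column of gene length. The labels name the human build GRCh38.p12 where the study's methods name mouse GRCm38. The gene identifiers matched the mouse annotation GENCODE M21, from which coordinates, lengths and GC content (98.5% of tested genes) were taken. Promoters came from the RefSeq table for GRCm38.p6.

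The 92 spike-in rows were left out, and every per-sample column was used. Genes were kept by filterByExpr (minimum count 10, minimum total 15), scaled by TMM and fitted over all 28 libraries with 1 mean per group in edgeR 4.0.16 (quasi-likelihood test, R 4.3.3), with Benjamini-Hochberg adjustment over all genes tested and a threshold of 0.05. SE is the absolute log2 fold change divided by the square root of F. CPM uses TMM-scaled library sizes unless the library total is named. The mitochondrial share was compared by an exact permutation test (Python 3.11.15). The fit was tested on simulated data. Alternatives were other scalings, filters and tests (DESeq2 1.42.0, limma 3.58.1), offsets by a spline of 5 degrees of freedom on length or GC content, other sets of libraries and each GF or SPF mouse of the comparison left out in turn. Leaving out FAD_ABX_1151 and FAD_ABX_1482 was added after seeing the data.

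The comparison and the gene lists were chosen with earlier results of these data known. Named genes were the 12 largest rises and 12 largest falls among called genes that averaged 3 log2 CPM or more without overlap, with predicted and clone-named genes counted only. Up to 3 called members with the lowest adjusted p and the highest member not called were added for each list, with the 5 called genes of highest expression and the cell type markers. Genes called in the interaction were to be named, and there were 0. Genes named beyond this were chosen after their values were seen. Reads from overlapping genes on opposite strands cannot be told apart. The GF and SPF 5xFAD libraries held 18484662 to 26117479 raw counts each. Mice of the same group differed by more than counting error, with a chi-square per degree of freedom of at least 6.92 for each pair. A few genes and antigens are not reported here.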

Additional observations from a re-analysis of the deposited data

Results flagged for a closer look

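In 16 of 133 values of the 5 GF 5xFAD libraries, 1 mouse lay far from the other 4 (Dixon's ratio above 0.71), and chance gives about 1 in 20 such values. FAD_GF_201, whose labels conflict, accounted for 11 of the 16. It was low for Cox6a2 at 21.4 CPM, Ramp1 at 148 CPM, Apoe at 5321 CPM, Ctsz at 4107 CPM, Rplp0 at 133 CPM, Aldoa at 403 CPM, Ctsa at 3129.5 CPM, Mt1 at 54.6 CPM and Cst7 at 774 CPM. It was high for Tmem119 at 4421 CPM, and its 100 highest genes took 32.7% of the reads, the lowest share of the GF libraries. For Apoe the other 4 GF mice were at 9253 to 10154 CPM, and for Tmem119, a surface marker of homeostatic microglia, at 3033 to 3331 CPM.

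FAD_GF_185 was low for Eif3d at 75.6 CPM and for Tgm2 at 23.2 CPM, and high for Hk2 at 120.3 CPM. FAD_GF_181 was low for Adcy8 at 0.0534 CPM, and FAD_GF_184 was high for Eif3g at 145 CPM.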

How the results depend on the processing

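Of 133 called named genes, 82 stayed past the threshold in every alternative run and 0 reversed. Between 0 and 44 were lost under each, the most without FAD_SPF_1148 (44), without FAD_SPF_1146 (37) and with GC offsets (17). Of 97 named genes that were not called, 30 passed in some alternative. The genes called in 5xFAD mice numbered 3872 by voomWithQualityWeights (2037 higher and 1835 lower), 664 at an adjusted p of 0.01 and 4104 at an unadjusted p of 0.05, and 547 to 2167 with 1 GF or SPF mouse of the comparison left out. In the other alternatives they numbered 1539 to 2630, within 1.5 times 1962.

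In WT mice the 248 genes became 135 with GC offsets, 721 by DESeq2, 1631 by voomWithQualityWeights, 1286 with only the groups compared, 795 without the ABX libraries, 659 without FAD_ABX_1151 and FAD_ABX_1482, 31 at an adjusted p of 0.01, 2538 at an unadjusted p of 0.05 and 54 to 359 with 1 mouse left out, the highest without WT_GF_199. For the interaction the 0 genes became 2 with no filter, 3 with length offsets, 5 with GC offsets, 25 by DESeq2, 116 by voomWithQualityWeights, 1 with only the groups compared, 1 without the ABX libraries, 3 without FAD_ABX_1151 and FAD_ABX_1482, 1304 at an unadjusted p of 0.05 and 0 to 8 with 1 mouse left out. The difference in mitochondrial share was -0.0924 to -0.0448 percentage points with 1 mouse left out, where so few mice leave no exact test that can pass 0.05. The cause of these changes was not tested.

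No paired analysis was possible because the groups share no replicate numbers. Among mice left out, FAD_SPF_1146 and FAD_SPF_1148 moved the count of genes called in 5xFAD mice by over 1.5 times, and germ status, facility and label style cannot be told apart. Genes with few reads, such as the neutrophil markers, carry wide counting errors. Intervals cover counting error only.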
